A study of Mus musculus with 4 samples.

Results

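The members described here are 38 mouse genes of homologous recombination, the Fanconi anemia pathway and the damage checkpoint kinases, out of 22138 genes in the deposited table. They were chosen by name, with earlier results of these data known. The table listed 35 of them under the current symbol and 3 under an older symbol, which were matched by Ensembl identifier (Rad51b as Rad51l1, Rad51d as Rad51l3, Rmi2 as A630055G03Rik). All 38 passed the filter on low values, an average of 0.5 RPKM or more across libraries, as did 12486 genes in all. RPKM is the number of mapped reads scaled to transcript length and library size, so levels of different genes can be compared per length.

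Homologous recombination repairs a broken DNA molecule by copying an intact sister strand. The MRE11-RAD50-NBN complex and its partners trim the ends, BRCA1, BARD1, PALB2 and BRCA2 prepare the exposed strand to pair with the intact copy, and helicases and nucleases separate the joined molecules. The Fanconi pathway recognises crosslinks between DNA strands, attaches ubiquitin to FANCD2 and FANCI through its core complex, and hands the lesion to the same recombination machinery. ATM and ATR are the kinases that signal breaks and stalled replication forks to CHEK2 and CHEK1. Embryonic stem cells divide fast with a short first gap phase and rely heavily on this form of repair.

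The cells were TT2, an embryonic stem cell line of strain C57BL/6xCBA labelled female, with the preimplantation embryo as its labelled stage, cultured with serum and LIF on no feeder layer. One group received control siRNA (n = 2) and the other Hnrnpk siRNA (n = 2). Both groups were transfected with 100 nM siRNA and, 24 hours later, with 50 nM of it, and RNA was taken about 72 hours after that. Hnrnpk encodes hnRNP K, a protein that binds cytosine-rich RNA and DNA, and the comparison asked which transcripts differed once it was reduced. The labels give a single parental line and no other allele or agent in either group. They call the RNA rRNA-depleted in one place and poly(A)-selected in another, and they state neither the siRNA sequences nor whether reads were counted by strand.

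The target was lower in both libraries transfected against it. Hnrnpk stood at 236 and 226 RPKM after control siRNA and at 68.0 and 70.5 RPKM after Hnrnpk siRNA. On the log2 scale Hnrnpk fell by 1.73 (SE 0.0629, adjusted p = 6.59e-08 by limma), to 29.97% of the control mean. The relative depth was taken from low values, as the inverse of the commonest ratio to the value of control replicate 1. With control replicate 1 set to 1, it was 0.981 in control replicate 2 and 0.891 and 0.882 in the Hnrnpk siRNA libraries. The number of reads behind a value is not known. The 9 markers of pluripotent stem cells lay between 94.2 and 2451 RPKM in every library, with 2 called higher and 3 called lower. Nanog stood at 176.5% and Dppa5a at 177.7% of the control mean, and Sox2 at 68.7%. The 8 primitive endoderm markers summed to 5.57 and 5.59 RPKM in the control libraries and to 31.12 and 31.98 RPKM after Hnrnpk siRNA, with 4 of 8 under 1 RPKM throughout and all 5 tested ones called higher (Gata6 by 3.66 on the log2 scale). The 8 trophectoderm markers summed to 62.0 and 56.1 RPKM against 75.7 and 78.2 RPKM, with 3 of 8 under 1 RPKM. Of the 5 tested, 4 were called higher (log2 changes of 2.43 for Gata3, 1.65 for Eomes, 1.58 for Hand1 and 0.87 for Krt18) and Tfap2c, the most abundant with control siRNA, lower (-0.40). The 7 fibroblast markers summed to 9.46 and 8.02 against 4.08 and 4.32 RPKM, with 5 of 7 under 1 RPKM and both tested ones, Thy1 and Col1a1, called lower. No marker was at 0 in all libraries, and the 4 Y-linked genes examined did not exceed 0.46 RPKM in any library. The part of these shifts in the results below was not tested. RNA was measured in bulk, so fewer cells of a type and less RNA per cell cannot be told apart.

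Among the 38 members, 16 fell and 5 rose after Hnrnpk siRNA, and 17 did not pass the test (limma on log2(RPKM + 0.5), Benjamini-Hochberg adjusted p under 0.05 over all genes tested). The 16 that fell include Atr, Rad50, Rad54l, Brca2, Fance and Rad51c, and the 5 that rose are Fancm, Rad52, Xrcc2, Nbn and Fanci. Called genes made up 55.3% of the members (21 of 38) against 67.2% of all genes tested, so being called does not set the members apart. Members called lower were 42.1%, against 35.0% of all genes, and members called higher were 13.2%, against 32.2% of all genes. A fall of at least 2-fold (a log2 change of -1 or below) was called for 5 members, or 13.2% of them, against 4.52% of all genes. A rise of that size was called for 0 members (limma; 5 members were higher at any size), against 4.0% of all genes. The number of members with a called 2-fold fall was 4 with an added value of 1 RPKM and under quantile normalization. With the GC or the length trend removed it was also 4. The groups did not overlap in 32 members (84.2%), where this held for 84.7% of all genes, and nothing particular to the members is read from that count.

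The median log2 change over the members was -0.152, against -0.015 over all genes tested, with members from -1.52 to 0.84. Their median level in the control libraries was 11.9 RPKM, against 9.29 RPKM for all genes tested, and single members lay between 2.29 and 40.8 RPKM. The number of members called higher depended on single libraries. It was 2 without control replicate 1, 8 without control replicate 2, 2 without Hnrnpk siRNA replicate 1 and 3 without Hnrnpk siRNA replicate 2, and 3 with no filter on low values. The number called lower stayed between 14 and 16 when any 1 library was left out. With each library's trend on transcript length removed, the median of the members was -0.093, against 0.0172 over all genes tested.

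**Figure D1:**
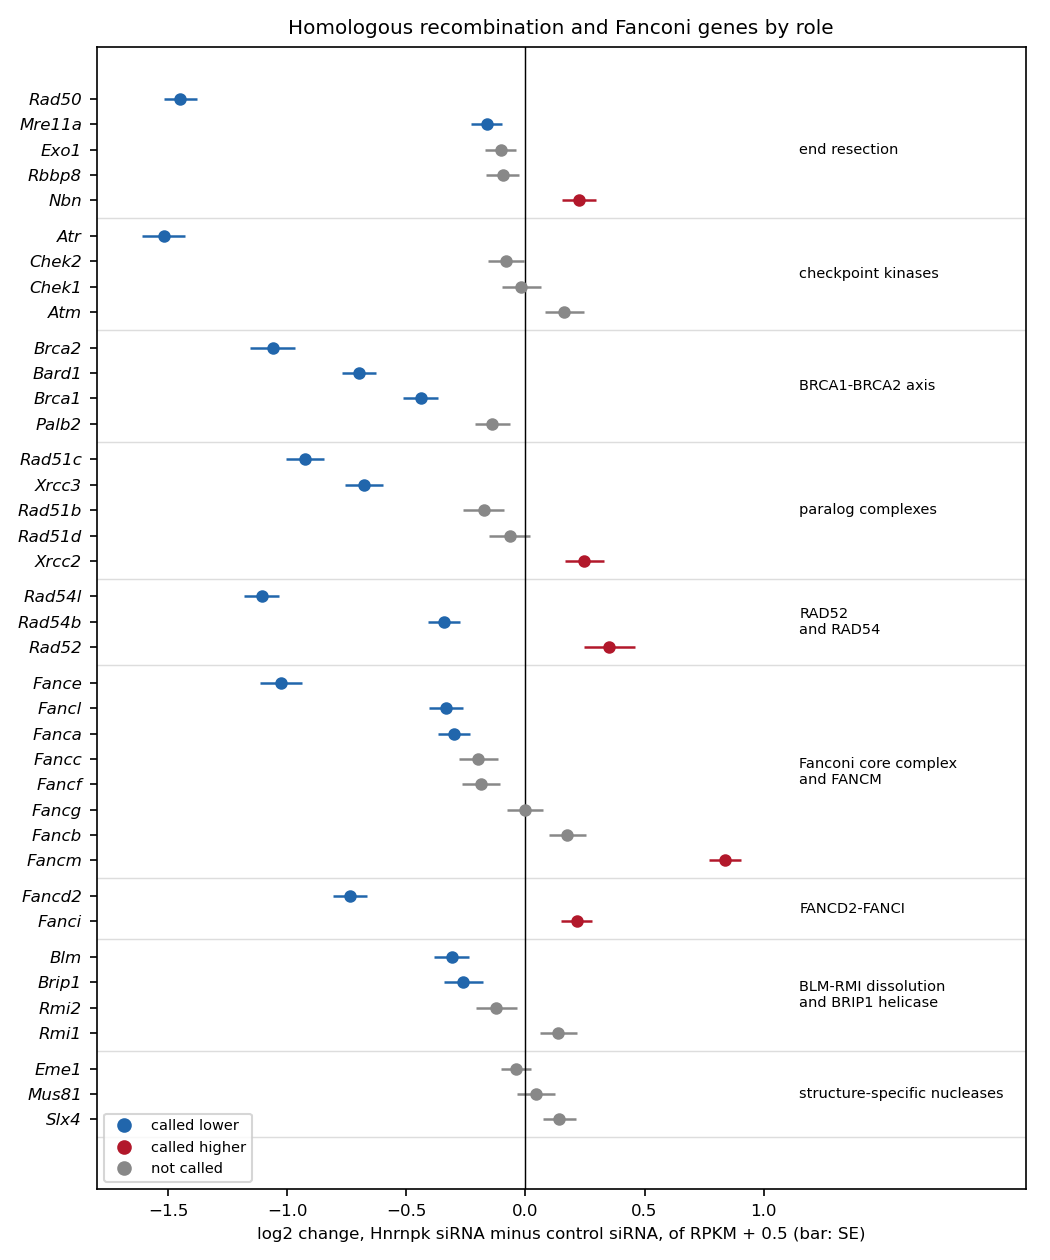
Log2 change of each of the 38 members on the log2(RPKM + 0.5) scale (horizontal axis; points are limma estimates and bars are SE, n = 2 libraries per group), grouped by role. Blue members were called lower, red members higher and grey members were not called; Atr at -1.52 and Rad50 at -1.45 lie farthest to the left and Fancm at 0.84 farthest to the right.

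The checkpoint kinases differed from one another. Atr, the kinase recruited to single-stranded DNA at stalled forks, was at 11.7 and 12.3 RPKM with control siRNA and 4.21 and 3.55 RPKM after Hnrnpk siRNA. Both Hnrnpk siRNA libraries lay well below both controls, with no overlap. The log2 change was -1.52 (SE 0.0903, adjusted p = 9.38e-07 by limma), the largest fall among the members, and 0.633% of the genes tested had an equal or lower value. Atr (ENSMUSG00000032409) lies on chromosome 9 from 95857597 to 95951781 of GRCm38. Of its exonic bases in GENCODE M21, 3.07% overlap an antisense gene, 1700065D16Rik. Atm, the kinase that answers to broken ends, had 8.87 and 9.80 RPKM against 11.1 and 9.96 RPKM, a log2 change of 0.16 that did not pass the test (adjusted p = 0.107). The effector kinases overlapped between groups: Chek1 had 18.1 and 21.04 against 19.7 and 18.9 RPKM, and Chek2 had 39.6 and 34.5 against 34.4 and 35.4 RPKM. Leaving out control replicate 2 brought the log2 change of Atm past the test, as did removing the length trend.

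The promoter of Atr is shown because this gene fell furthest. The window runs from 250 bases before to 50 bases after the start of the gene in RefSeq (GRCm38.p6, chr9:95857347-95857646, plus strand). Capitals mark the only match to any motif searched, the letters TTCGAA, which were searched as letters of the cell cycle homology region.
Atr: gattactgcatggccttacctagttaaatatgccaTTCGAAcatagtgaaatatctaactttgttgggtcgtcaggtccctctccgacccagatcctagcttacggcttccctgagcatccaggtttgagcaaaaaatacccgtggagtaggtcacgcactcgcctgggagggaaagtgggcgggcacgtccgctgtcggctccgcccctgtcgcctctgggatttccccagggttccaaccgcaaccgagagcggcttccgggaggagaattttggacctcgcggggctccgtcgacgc

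In the end-trimming group the 3 subunits of one complex went apart. Rad50, the ATPase that tethers broken ends, was at 40.8 and 40.8 RPKM with control siRNA and 15.4 and 13.9 RPKM after Hnrnpk siRNA. It kept 35.9% of its control level, with a log2 change of -1.45 (SE 0.0691, adjusted p = 2.86e-07 by limma). Rad50 (ENSMUSG00000020380) lies on chromosome 11 from 53649519 to 53707319 of GRCm38. Mre11a, the nuclease of the complex, went only from 20.0 and 20.2 to 18.1 and 17.7 RPKM, a log2 change of -0.16 (adjusted p = 0.0442) that was not called when any 1 library was left out, under median-ratio scaling, without limma's trend or with the length trend removed. Nbn, which brings ATM to the complex, rose from 17.5 and 19.0 to 22.1 and 20.7 RPKM (log2 change 0.22, adjusted p = 0.0185). Without control replicate 1 or without Hnrnpk siRNA replicate 1 Nbn was not called. Rbbp8, the CtIP cofactor of MRE11, and Exo1, the exonuclease that extends the trimmed end, had log2 changes of -0.10 each and were not called, although Rbbp8 was called lower with the GC trend removed. Exo1 was among the more abundant members, at 36.0 and 38.6 RPKM against 33.9 and 35.4 RPKM.

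**Figure D2:**
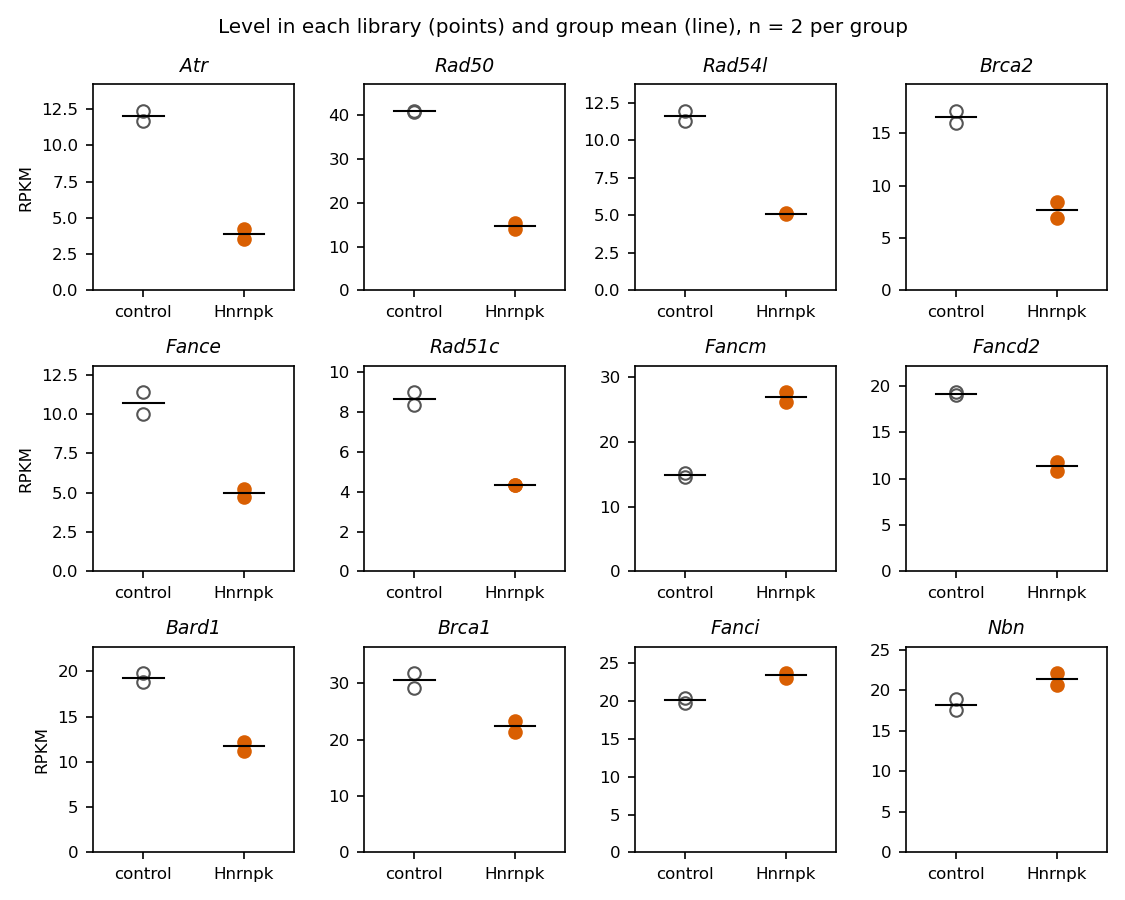
RPKM in each library (points) with the group mean (line) for the 8 members with the largest called changes and for Bard1, Brca1, Fanci and Nbn; every axis starts at 0, with control siRNA on the left and Hnrnpk siRNA on the right of each panel. Replicates sit close together in each panel and no pair of groups overlaps, from Atr (11.7 and 12.3 against 4.21 and 3.55 RPKM) to Nbn (17.5 and 19.0 against 22.1 and 20.7 RPKM). The 8 were taken from called members without overlap, so its absence in their panels was set by that choice. Groups did not overlap in 84.7% of all genes tested.

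Of the genes of the BRCA1-BRCA2 axis, 3 of 4 fell. Over all genes tested 35.0% fell, and 4 genes are too few to set against that share. Brca2, a mediator of strand pairing at the break, was at 16.0 and 17.1 RPKM with control siRNA and 8.44 and 6.96 RPKM after Hnrnpk siRNA. The Hnrnpk siRNA libraries differed more from each other here than for Rad50, but both were under 9 RPKM. The log2 change was -1.06 (SE 0.0931, adjusted p = 8.8e-06 by limma). Brca2 (ENSMUSG00000041147) lies on chromosome 5 from 150522630 to 150570329 of GRCm38. Bard1, the partner in the BRCA1 ubiquitin ligase, went from 19.8 and 18.8 to 12.2 and 11.2 RPKM, a log2 change of -0.70 (adjusted p = 2.44e-05). Brca1 itself, which promotes end trimming and recruits PALB2, went from 29.3 and 31.8 to 23.3 and 21.4 RPKM, a log2 change of -0.44 (adjusted p = 0.000483). Both subunits of that ligase were lower, Bard1 to 60.6% and Brca1 to 73.3% of the control mean. Palb2, the bridge between BRCA1 and BRCA2, had 9.22 and 9.01 against 8.47 and 7.98 RPKM; its log2 change of -0.14 did not pass the test (adjusted p = 0.117).

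Of the 5 genes of the paralog complexes (Rad51b, Rad51c, Rad51d, Xrcc2 and Xrcc3), which assist strand pairing, 2 fell and 1 rose. Over all genes tested 35.0% fell and 32.2% rose, and 5 genes are too few to set against those shares. Rad51c belongs to both paralog complexes, the one with RAD51B, RAD51D and XRCC2 and the one with XRCC3. It stood at 9.001 and 8.35 RPKM with control siRNA and 4.33 and 4.33 RPKM after Hnrnpk siRNA. The change on the log2 scale was -0.93 (SE 0.0780, adjusted p = 6.96e-06 by limma). Its RPKM mean was 49.88% of the control mean, while the added 0.5 RPKM leaves its log2 change short of -1; Fance at -1.02 was the member just past -1. Rad51c (ENSMUSG00000007646) lies on chromosome 11 from 87376645 to 87404954 of GRCm38. Xrcc3 fell with it, from 9.45 and 8.42 to 5.39 and 5.39 RPKM (log2 change -0.68, adjusted p = 6.26e-05). Xrcc2 rose from 5.05 and 5.62 to 6.32 and 6.52 RPKM (log2 change 0.25, adjusted p = 0.0226), a call that was lost without control replicate 1, without either Hnrnpk siRNA library and with no filter on low values. Rad51b, the lowest member at 2.29 and 2.29 against 1.92 and 2.02 RPKM, and Rad51d, at 9.79 and 8.45 against 8.38 and 8.97 RPKM, did not pass the test; Rad51b was called lower with the GC trend removed.

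Among the 3 genes of strand exchange and annealing, Rad54l fell most. Rad54l, a motor protein that drives strand invasion, was at 11.9 and 11.3 RPKM with control siRNA and 5.13 and 5.09 RPKM after Hnrnpk siRNA (log2 change -1.11, SE 0.0737, adjusted p = 1.73e-06 by limma). It lies on chromosome 4 from 116094264 to 116123690 of GRCm38 (ENSMUSG00000028702), and 15.4% of its exonic bases overlap Lrrc41 on the other strand. Its relative Rad54b went from 14.8 and 14.4 to 11.6 and 11.2 RPKM (log2 change -0.34, adjusted p = 0.00149). A further row under the symbol Rad54b, with an identifier that GENCODE M21 does not hold, was at 2.61 and 2.33 against 1.28 and 1.48 RPKM and is not counted as a member. Of the exonic bases of Rad54b, 35.8% overlap Fsbp on the same strand, so its value is uncertain. Rad52, which anneals complementary strands, rose from 6.45 and 8.31 to 9.32 and 9.67 RPKM (log2 change 0.35, adjusted p = 0.0147). Its control mean was 7.38 RPKM with an SD of 1.31, and the call was lost without control replicate 1, without Hnrnpk siRNA replicate 2 and with no filter on low values.

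The windows of Rad54l (GRCm38.p6, chr4:116123641-116123940, minus strand) and Rad52 (GRCm38.p6, chr6:119902448-119902747, plus strand) are also shown. Among members with a window, these had the largest called fall after Atr and the largest called rise after Fancm. Capitals mark a CCAAT match at position -50 of Rad54l, and no motif searched is in the window of Rad52.
Rad54l: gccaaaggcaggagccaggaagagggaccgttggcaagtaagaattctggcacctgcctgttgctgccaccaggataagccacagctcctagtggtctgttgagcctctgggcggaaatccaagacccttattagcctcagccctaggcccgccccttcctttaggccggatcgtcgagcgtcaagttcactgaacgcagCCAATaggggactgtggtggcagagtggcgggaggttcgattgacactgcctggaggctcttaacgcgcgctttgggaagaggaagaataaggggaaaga
Rad52: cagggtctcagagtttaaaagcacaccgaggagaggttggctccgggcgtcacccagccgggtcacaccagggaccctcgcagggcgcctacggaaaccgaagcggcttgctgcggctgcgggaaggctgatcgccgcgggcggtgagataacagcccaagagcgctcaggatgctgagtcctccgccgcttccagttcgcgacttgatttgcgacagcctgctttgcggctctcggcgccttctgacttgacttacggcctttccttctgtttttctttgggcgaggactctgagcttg

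The Fanconi core complex and its DNA-binding partner FANCM held 3 of 8 genes called lower (37.5%, against 35.0% of all genes tested) and 1 called higher (12.5%, against 32.2%), so the lower share is near that of all genes. Fance, the subunit that contacts FANCD2, went from 11.4 and 9.98 RPKM to 4.74 and 5.24 RPKM (log2 change -1.02, SE 0.0884, adjusted p = 8e-06 by limma). Fance (ENSMUSG00000007570) lies on chromosome 17 from 28313519 to 28326572 of GRCm38. Fancl, the ubiquitin ligase of the complex, went from 17.5 and 19.2 to 14.3 and 14.7 RPKM, and Fanca from 13.6 and 13.7 to 11.01 and 10.95 RPKM, with log2 changes of -0.33 and -0.30. Of their exonic bases, 13.7% (Fancl) and 10.5% (Fanca) overlap Vrk2 and Zfp276 on the other strand. Fancc, Fancf, Fancg and Fancb did not pass the test, with log2 changes of -0.20, -0.19, -0.0014 and 0.18. Fancc was called lower without limma's trend and without control replicate 1, Fancf lower with the length trend removed and without control replicate 2, and Fancb higher without control replicate 2. Fancc shares 1373 exonic bases with Gm16133 and Fancf 253 bases with Gas2, both on the other strand. Fancg, at 6.79 and 6.55 against 6.45 and 6.89 RPKM, was the member whose group means lay closest.

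Fancm, the translocase that anchors the core complex to damaged DNA, was the member with the largest rise. It was at 14.5 and 15.1 RPKM with control siRNA and 27.6 and 26.2 RPKM after Hnrnpk siRNA. Both Hnrnpk siRNA libraries were far above both controls. The log2 change was 0.84 (SE 0.0665, adjusted p = 4.86e-06 by limma), a level of 181% of the control mean, and it was called under every alternative tried. Fancm (ENSMUSG00000055884) lies on chromosome 12 from 65075603 to 65132058 of GRCm38. Its promoter window (GRCm38.p6, chr12:65075353-65075652, plus strand) is shown for comparison with that of Atr. Capitals mark its only motif match, the letters CCAAT, whose first base lies at position -63.
Fancm: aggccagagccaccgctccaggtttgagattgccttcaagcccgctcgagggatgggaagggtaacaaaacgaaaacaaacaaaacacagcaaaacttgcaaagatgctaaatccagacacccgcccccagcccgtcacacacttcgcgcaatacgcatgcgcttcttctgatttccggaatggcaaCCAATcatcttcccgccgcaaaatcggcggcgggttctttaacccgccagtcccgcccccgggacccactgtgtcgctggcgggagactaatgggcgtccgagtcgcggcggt

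The pair that the core complex modifies also went apart. Fancd2 was at 19.1 and 19.3 RPKM with control siRNA and 11.8 and 10.8 RPKM after Hnrnpk siRNA (log2 change -0.74, SE 0.0710, adjusted p = 1.6e-05 by limma). It lies on chromosome 6 from 113531682 to 113597017 of GRCm38 (ENSMUSG00000034023). Fanci, with which FANCD2 forms a clamp on DNA, rose from 19.8 and 20.5 to 23.7 and 23.1 RPKM (log2 change 0.21, adjusted p = 0.0137), a call that was lost without Hnrnpk siRNA replicate 1. Of the exonic bases of Fanci, 16.0% overlap Polg on the other strand. The ratio of Fancd2 to Fanci was 0.965 and 0.944 in the control libraries and 0.499 and 0.468 after Hnrnpk siRNA. Transcripts that were near equal per length with control siRNA were unequal after Hnrnpk siRNA. With Fancd2 called lower and Fanci higher, a lower ratio followed from those calls. The pair was chosen after its values were seen, and its ratio was not tested.

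Of the helicase group, 2 of 4 fell, and 0 of the 3 nuclease genes passed the test. Over all genes tested 35.0% fell and 67.2% were called, and these groups are too small to set against those shares. Blm, the helicase that dissolves crossed strands, went from 36.2 and 33.2 to 29.2 and 26.7 RPKM, a log2 change of -0.31 (adjusted p = 0.00409). Brip1, the BRCA1-associated helicase, went from 6.87 and 6.50 to 5.77 and 5.24 RPKM, a log2 change of -0.26 (adjusted p = 0.0176) that was not called without Hnrnpk siRNA replicate 2 or with the length trend removed. The BLM cofactors Rmi1 and Rmi2 did not pass the test, with log2 changes of 0.14 and -0.12; Rmi1 was called higher without control replicate 2. Rmi1 overlaps the targeted gene: in GENCODE M21, 330 of its exonic bases (5.02%) overlap Hnrnpk on the other strand, and 43.9% of its transcript is shared with Gm20775 at 95% identity or more, so its value is uncertain. The nuclease genes Mus81, Eme1 and Slx4, which cut joined molecules, had log2 changes of 0.05, -0.04 and 0.14; by limma 0 of 3 were called, and 0 had an unadjusted p under 0.05. Slx4 was called higher with the GC or length trend removed, and Mus81 with the GC trend removed.

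Genes whose proteins work as partners were then set side by side within each library; these pairs were chosen after their values were seen and were not tested. The ratio of Rad50 to Nbn was 2.33 and 2.15 in the control libraries and 0.695 and 0.673 after Hnrnpk siRNA. For Rad50 to Mre11a it was 2.05 and 2.02 against 0.851 and 0.786. In each of these pairs the more abundant transcript per length became the less abundant. The same held for Atr to Atm, with ratios of 1.32 and 1.26 against 0.381 and 0.356. Brca2 to Palb2 went from 1.73 and 1.90 to 0.996 and 0.872. For Brca1 to Bard1, both of which fell, the ratio was 1.48 and 1.69 against 1.91 and 1.91, and for Chek1 to Chek2 the libraries overlapped, at 0.456 and 0.610 against 0.571 and 0.533.

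**Figure D3:**
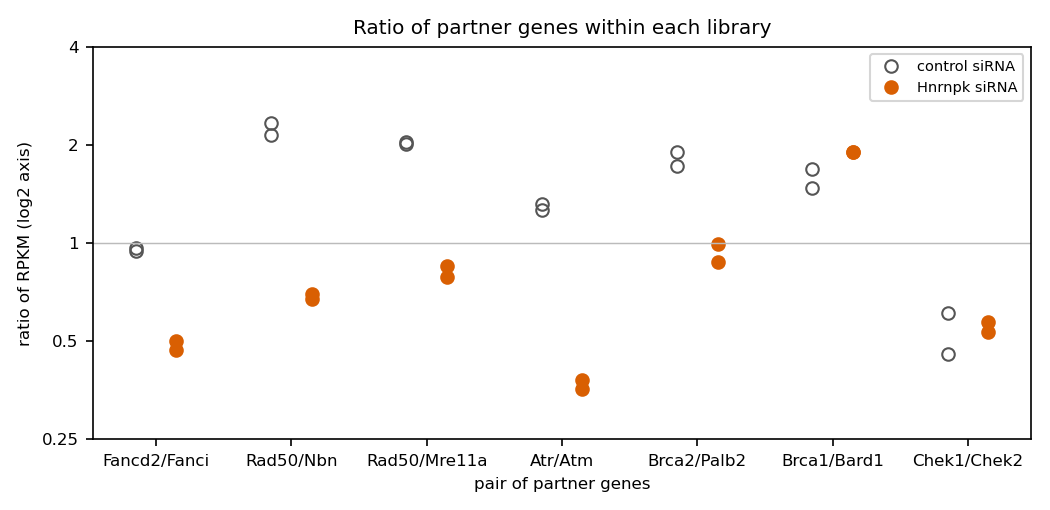
Ratio of the RPKM of partner genes within each library (vertical log2 axis), open circles for control siRNA and filled circles for Hnrnpk siRNA (n = 2 libraries each). The ratio of Atr to Atm lies at 1.32 and 1.26 with control siRNA and 0.381 and 0.356 after Hnrnpk siRNA, while the Chek1 to Chek2 circles overlap.

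The promoters of the members were searched for letters that E2F factors, the regulators of S phase genes, are known to bind. RefSeq windows of 300 bases were found for 29 of the 38 members (33 windows; Rad51b, Rad51c, Rad54l and Rmi1 have a second window, which overlaps the first for Rad51b and Rad54l). Those without an entry are Rad50, Nbn, Rbbp8, Exo1, Rad51d, Xrcc2, Rad54b, Fancd2 and Rmi2. The letters TTTCCCGC, TTTGGCGC or TTTGCGCG on either strand were found in 6 of the 33 windows (18.2%), against 3.54% of the windows of genes tested and 1.88% of all 32851 windows. The members that hold them are shown with 11 bases on each side and the letters in capitals, as read 5′ to 3′ on the strand of the gene.
Bard1 (chr1:71103163-71103192, minus strand): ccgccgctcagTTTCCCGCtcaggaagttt
Brca2 (chr5:150522442-150522471, plus strand): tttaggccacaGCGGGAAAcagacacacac
Rad51c (chr11:87404941-87404970, minus strand): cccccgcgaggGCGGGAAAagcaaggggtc
Chek2 (chr5:110839820-110839849, plus strand): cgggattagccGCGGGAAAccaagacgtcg
Fancg (chr4:43010335-43010364, minus strand): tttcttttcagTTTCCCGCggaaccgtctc
Rmi1 (chr13:58402612-58402641, plus strand): ccccgagggagTTTGGCGCgattggaggag

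All coordinates of these stretches are on GRCm38.p6. Bard1, Brca2 and Rad51c fell and Chek2, Fancg and Rmi1 were not called, so the letters stood in 3 of 15 windows of members called lower (20.0%) and in 3 of 15 windows of members not called (20.0%). In Rad51c the first of the letters lies at position -5 from the start, in Fancg at -52, in Chek2 at -152, in Brca2 at -168 and in Bard1 at -209, while in Rmi1 they lie at position 27 inside the gene. CCAAT on either strand was in 63.6% of the member windows and in 38% of the windows of genes tested (37.4% of all windows). The letters TTTGAA or TTCGAA of the cell cycle homology region were in 12.1% of member windows against 13.4% of those of genes tested and 19.2% of all. CCCCTCCC or CCCTCCCC, cytosine-rich letters searched because hnRNP K binds such sequence, were in 18.2%, 21.3% and 15.9% of the same sets. They stood in 3 of 15 windows of members called lower, 3 of 15 of those not called and 0 of 3 of those called higher. A match is a description of these windows and not a binding site.

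The members' transcripts were longer than the median of the genes tested. The representative transcript had a median length of 3746 bases, against 3039 bases for all genes tested, and a median GC content of 46.2% against 50.7%. Members called lower had a median of 4962 bases, those called higher 3247 bases and those not called 3426 bases. Of the longest members, Brca2 (10724 bases) and Atr (8102 bases) fell, Atm (9819 bases) and Exo1 (7796 bases) were not called, and Fancm (7775 bases) rose. The other members called higher were shorter, from 1693 bases for Rad52 to 4645 bases for Fanci.

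The other genes of the pathway were read from the same fit. Of 29 further genes of recombination and crosslink repair, 11 fell and 8 rose (median log2 change -0.144). These shares, 37.9% and 27.6%, are near the 35.0% and 32.2% of all genes tested. Dmc1, the meiotic recombinase, went from 6.87 and 6.99 to 3.16 and 3.01 RPKM (log2 change -1.05, adjusted p = 3.41e-06 by limma), and Mcm8 and Dna2, a helicase and a nuclease-helicase of repair synthesis and end trimming, had log2 changes of -0.83 and -0.65. Ercc4, the nuclease that unhooks crosslinks, rose from 6.18 and 7.08 to 14.3 and 14.5 RPKM (log2 change 1.06, adjusted p = 3.8e-06). Of 19 further checkpoint and damage-signalling genes, 10 fell and 1 rose (median -0.206), or 52.6% and 5.26%, against 35.0% and 32.2% of all genes tested. H2afx, the histone variant marked at breaks, went from 201 and 184 to 114 and 115 RPKM (log2 change -0.75), and Hus1, Clspn and Topbp1, which activate ATR or pass its signal to CHEK1, had log2 changes of -0.56, -0.56 and -0.46.

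Non-homologous end joining, the competing route that ligates ends without a template, had 3 of 9 genes lower and 2 higher (median log2 change -0.113). At 33.3% and 22.2%, neither share was above that of all genes tested (35.0% and 32.2%). Xrcc6, one subunit of the Ku ring, went from 35.3 and 34.7 to 18.4 and 18.3 RPKM (log2 change -0.91, adjusted p = 1.92e-06 by limma), and Prkdc, its kinase, had a log2 change of -0.68. Xrcc4 and Lig4, which seal the ends, had log2 changes of 0.49 and 0.30. Lig4 was not called without Hnrnpk siRNA replicate 1.

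Lists that follow the cell cycle and p53 were read from the same fit, since recombination genes are used mainly in S and G2 phase. Of 20 S phase genes, 8 fell and 1 rose (median log2 change -0.082). Called genes made up 45% of this list, against 67.2% of all genes tested. The share that fell, 40%, is near the 35.0% of all genes, while the share that rose, 5%, was below their 32.2%. By adjusted p the first were Tyms, Mcm6, Ccne1 and Pola1 at -0.79, -0.52, -0.54 and -0.58. Of 20 G2 and mitosis genes, 10 rose and 5 fell (median 0.178), or 50% and 25%, against 32.2% and 35.0% of all genes tested, and by adjusted p the first were Kif20a, Birc5 and Cdc20 at 0.58, 0.47 and 0.54 and Plk1 at -0.44. All 16 p53 targets rose (median 1.594), with Perp, Plk2, Pmaip1 and Mdm2 at 2.12, 2.90, 1.55 and 1.61. The summed RPKM of the 38 members was 580 and 586 in the control libraries and 498 and 488 after Hnrnpk siRNA, while the p53 targets summed to 620 and 545 against 1532 and 1593 RPKM. Whether these shifts have a part in the members' values was not tested.

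**Figure D4:**
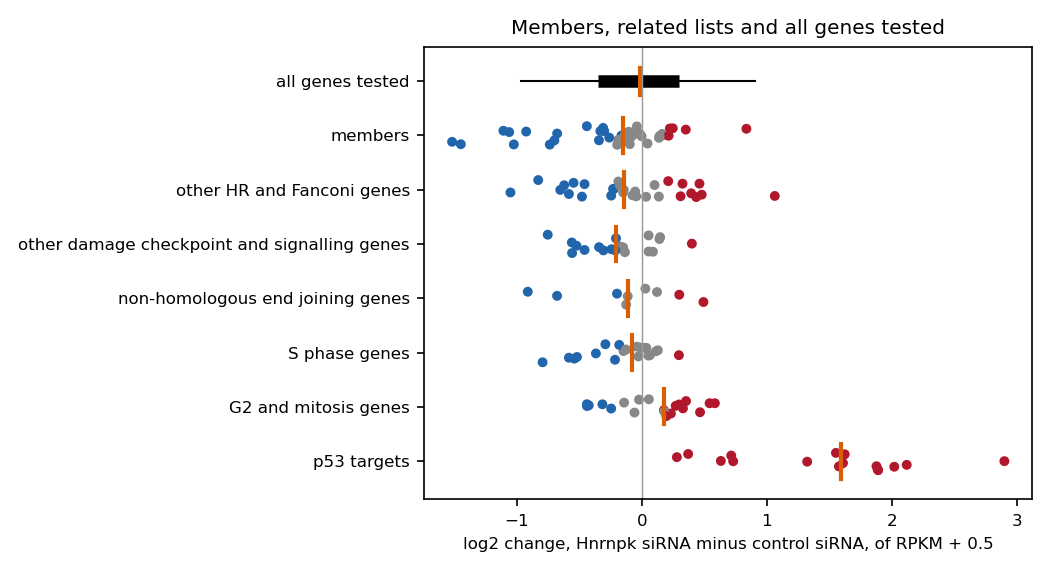
Log2 change on the log2(RPKM + 0.5) scale for the members, the related lists and all genes tested (horizontal axis); points are genes, blue called lower, red called higher, grey not called, and orange bars are medians. For all genes tested the thick bar spans the 25th to 75th percentile (-0.35 to 0.30) and the thin line the 5th to 95th (-0.97 to 0.91); the members' points reach -1.52 on the left and 0.84 on the right.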

How the data were processed

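RNA of 4 libraries was sequenced. The authors deposited RPKM values per gene, 1 column per library; the submitters' processing notes name BWA, SAMtools and the build mm9, and the sources used here do not give the counting tool, the annotation or the handling of reads that match several places. The series calls the libraries biological replicates. The limma p-values set the difference between groups against the spread between replicates, partly pooled over genes.

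RPKM are not counts and whole reads were not recovered, so no count model was used. The 12486 genes averaging 0.5 RPKM or more were fitted as log2(RPKM + 0.5) with limma 3.58.1 in R 4.3.3 (mean-variance trend, two-sided moderated tests), Hnrnpk siRNA minus control siRNA, with Benjamini-Hochberg adjustment over all of them and calls at 0.05. On this scale low genes show a smaller change than their RPKM. With 2 libraries a group, an exact permutation test cannot go below p = 0.333, so calls rest on variance pooled over genes.

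The members and lists were chosen with earlier results of these data known. Full statistics are given for the 8 members with the largest called changes without overlap, and up to 4 called genes of each other list by adjusted p; the partner pairs were chosen after their values were seen. Positions, transcript length and GC are from GENCODE M21 (GRCm38) by identifier, not the build of the values; promoters are RefSeq's (GRCm38.p6), and BLAST 2.17.0 compared transcripts. Alternatives were added values of 0.1 and 1 RPKM, no filter or a mean of 1 RPKM, median-ratio and quantile scaling, no trend, GC or length trends removed, the replicate number as a block, and each library left out.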

Additional observations from a re-analysis of the deposited data

How the results depend on the processing

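Of the 16 members called lower, 14 kept their direction and call under all 14 alternatives tried (Mre11a and Brip1 did not); of the 5 called higher, Fancm did. Of the 17 not called, 2 kept direction and status under all of them, and 9 were called under at least 1 (Rbbp8, Atm, Rad51b, Fancb, Fancc, Fancf, Rmi1, Mus81 and Slx4). With the replicate block, 5 members were called higher and 16 lower, as without it. The block moved the calls over all genes from 4025 higher and 4371 lower to 4162 and 4460. The deviations of same-numbered libraries correlated at 0.0267 over genes. With 2 libraries a group, that value cannot settle whether the numbers pair the libraries. Restricting to the 35 members matched by symbol, an alternative chosen after seeing the data, left 5 higher and 16 lower.

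Leaving out 1 library at a time, where the lone library of its group is assumed to vary like the other group, gave 2 to 8 members called higher, and no filter on low values gave 3. The members' median log2 change was -0.128 under quantile normalization and -0.093 with the length trend removed. Over all genes tested, these settings gave medians of -0.00521 and 0.0172. Without 1 library the members' median lay between -0.172 and -0.137, and that of all genes tested between -0.0236 and -0.00301. The spread of the members' median between replicates was 0.013. Further checkpoint genes called higher numbered 2 with no filter and under quantile normalization and 3 with the length trend removed, against 1; S phase genes called higher numbered 2 with GC or length trends removed and 1 to 2 without 1 library; end joining genes called higher numbered 1 to 2 without 1 library. Members near 0 changed sign, none of them called: Exo1 (0.04) and Chek1 (0.02) with the length trend removed, Eme1 (0.04) with the GC trend removed, and Fancg at 0.01 (median-ratio scaling and length), 0.04 (quantile normalization) and 0.07 (GC). Without 1 library, log2 changes ran from -0.12 to 0.09 for Chek1, from -0.18 to 0.02 for Chek2, from -0.17 to 0.03 for Rad51d, from -0.05 to 0.04 for Fancg and from -0.02 to 0.11 for Mus81. The causes were not tested. Depth per gene is unknown, which limits the low members most.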
